A study of Mus musculus with 12 samples.

Results

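The heat shock proteins and DNAJ chaperones are the families of molecular chaperones that fold newly made proteins and refold damaged ones. They were taken by symbol from the annotation of a mouse expression array: every gene whose symbol begins with Dnaj, or with Hspa, Hspb, Hspd, Hspe, Hsph or Hsp90 and a further character, from probe sets (groups of array oligos that report 1 transcript) annotated with exactly 1 symbol. This gave 72 genes of 18193 measured, read by 174 of 34945 probe sets. Of the 72 genes, 44 are DNAJ genes (4 DNAJA, 13 DNAJB and 27 DNAJC) and 28 carry a heat shock protein symbol. These 28 comprise 13 HSP70 genes (Hspa), the HSP110 gene Hsph1, the HSP90 genes Hsp90aa1 and Hsp90b1, the mitochondrial chaperonin genes Hspd1 and Hspe1, 8 small heat shock protein genes (Hspb), and Hspbp1 and Hspbap1, which share the prefix but encode partner proteins. A total of 26 members were read by 1 probe set and 46 by several, which were averaged. A further 3 probe sets with a Dnaj symbol carried more than 1 symbol and were left out, and Hsp90ab1 was not analysed here.

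All samples were unstimulated thymocytes of C57BL/6 mice, sorted by flow cytometry and lysed without culture. There were 4 subsets with 3 arrays each. Double-negative cells (DN) lacked surface CD4, CD8a and TCRb. Double-positive cells (DP) carried both CD4 and CD8a. CD4 single-positive cells (CD4SP) carried CD4 and a high level of TCRb without CD8a, and CD8 single-positive cells (CD8SP) carried CD8a and a high level of TCRb without CD4. DN cells precede DP cells in the thymus, and DP cells give rise to both single-positive subsets after selection. The age and sex of the mice, the number of mice behind each array and whether replicates came from separate mice are not given in the sources used here, so each p-value speaks only for the spread among the arrays at hand, which may be technical.

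Chaperones of the HSP70 family bind exposed hydrophobic stretches of unfolded proteins and release them in an ATP-driven cycle. DNAJ proteins, also called J proteins, deliver clients and start ATP hydrolysis, nucleotide exchange factors such as the HSP110 proteins end the cycle, and HSP90 takes over a selected group of clients. Separate sets serve the cytosol, the endoplasmic reticulum and the mitochondrion, and a subset of the cytosolic genes is switched on by the transcription factor HSF1 when cells are stressed.

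The deposited values are logarithms, taken here as log2, and the average of the 3 DP arrays had been subtracted from each probe set. A value of 1 is thus a doubling relative to DP, and levels of different genes cannot be set against each other. Differences were tested with limma across all genes, and a gene was called at a Benjamini-Hochberg adjusted p under 0.05. Surface markers went with the labels: the Cd4 difference was 8.26 ± 0.50 (log2, SE) in CD4SP minus CD8SP and the Cd8a difference was -6.20 ± 0.38. Array medians over all probe sets lay between -0.10 and 0.05. CD8SP replicate 1 stood apart, with the lowest limma array weight (0.276, against 0.527 to 1.81 on the others) and with hybridisation control probe sets at 0.93, against -0.13 to 0.12 on the others. DN replicate 1 had the next lowest weight, 0.527. In sorted populations, fewer cells of a type and less RNA per cell cannot be told apart.

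**Figure D1:**
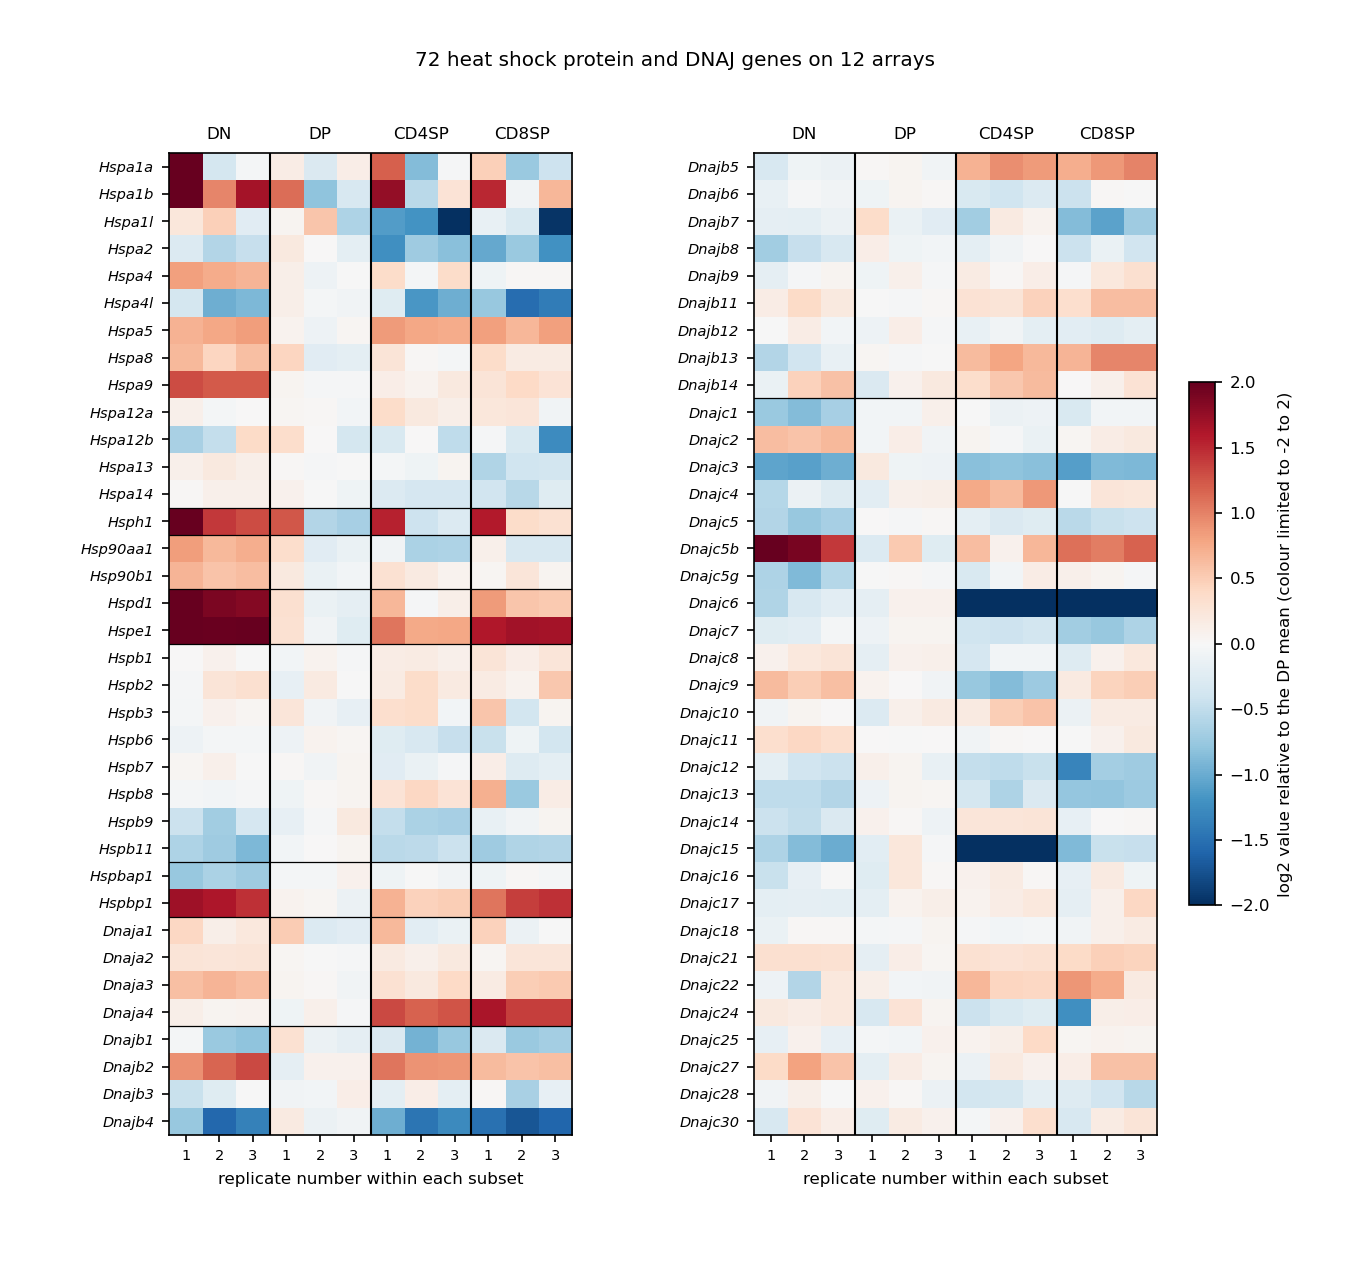
Values of all 72 members on the 12 arrays, as colour on a log2 scale relative to the DP mean (colour limited to -2 to 2), with subsets as blocks of columns, replicate numbers along the bottom and gene classes divided by horizontal lines. Hspd1 and Hspe1 are dark red on the 3 DN arrays, Dnajc6 is dark blue on the 6 single-positive arrays, and Hspa1b and Hsph1 are darkest on the array numbered 1 of each subset.

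Between DP and DN cells 33 members (45.8%) were called, against 36.6% of all genes. In DP 15 were higher, against 17.8% of all genes, and 18 lower, against 18.8%. Between CD4SP and DP cells 30 members (41.7%) were called, against 32.7% of all genes. In CD4SP 13 were higher, against 16.4% of all genes, and 17 lower, against 16.2%. Between CD8SP and DP cells 33 members (45.8%) were called, against 39% of all genes. In CD8SP 17 were higher, against 18.2% of all genes, and 16 lower, against 20.9%. The single-positive subsets differed in 10 members (13.9%), against 12.7% of all genes. In CD4SP 5 of these were higher, against 7.78% of all genes, and 5 lower, against 4.91%. Of all genes called there 61.3% were higher in CD4SP, and 45.2% after quantile normalization.

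The arrays of the 2 groups did not overlap for 38 members in DP minus DN (52.8%, against 49.8% of all genes), 39 in CD4SP minus DP (54.2%, against 49.4%), 36 in CD8SP minus DP (50%, against 48.6%) and 25 in CD4SP minus CD8SP (34.7%, against 30.3%). These shares, and those of called members, lie near the shares of all genes. The median difference of the members lay between -0.03 and 0.07 in the 4 comparisons, against 0.00 to 0.04 for all genes. Members were called in both directions in each comparison, and the account below goes by compartment and role. The comparisons with DP share the same 3 DP arrays, so their values are set side by side and are not independent.

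The mitochondrial chaperones Hspe1 and Hspd1 had the largest called decreases of the members in DP relative to DN. Hspd1 encodes HSP60, the barrel that folds proteins in the mitochondrial matrix, and Hspe1 encodes HSP10, its lid. Hspe1 read 0.31, -0.07 and -0.24 on the DP arrays and 2.29, 1.98 and 2.00 on the DN arrays. Hspd1 read 0.32, -0.13 and -0.19 in DP and 2.03, 1.88 and 1.84 in DN. All DN arrays lay well above all DP arrays for both genes. The differences were -2.09 ± 0.15 for Hspe1 (adjusted p = 1.83e-06) and -1.92 ± 0.19 for Hspd1 (adjusted p = 1.77e-05). Hspa9, the mitochondrial HSP70 that pulls imported proteins into the matrix, read 0.05, -0.03 and -0.02 in DP and 1.30, 1.23 and 1.23 in DN, a difference of -1.25 ± 0.07 (adjusted p = 5.01e-07). Dnaja3, the J protein partner of Hspa9, was lower in DP as well (-0.64 ± 0.10, adjusted p = 0.000674), but its probe sets disagreed: the difference was 0.26 (adjusted p = 0.119) when probe sets shared between transcripts were left out.

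In the single-positive subsets Hspe1 stood again above DP. It read 1.07, 0.76 and 0.78 on the CD4SP arrays and 1.60, 1.68 and 1.66 on the CD8SP arrays, and these groups overlapped neither with each other nor with DP. The difference was 0.87 ± 0.15 in CD4SP minus DP (adjusted p = 0.000891) and 1.65 ± 0.15 in CD8SP minus DP (adjusted p = 7.88e-06). Hspd1 read 0.66, -0.02 and 0.12 in CD4SP and 0.85, 0.55 and 0.52 in CD8SP. Only its CD8SP difference from DP passed the test (0.64 ± 0.19, adjusted p = 0.0198), with no overlap of arrays, and that call was lost when CD8SP replicate 1, DP replicate 2 or DP replicate 3 was left out (0.53 to 0.57, adjusted p = 0.0686 to 0.0754). Hspa9 was higher in CD8SP than in DP by 0.31 ± 0.07 (adjusted p = 0.00606), and in CD4SP minus DP its difference of 0.14 ± 0.07 did not pass (adjusted p = 0.188).

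Hspd1 and Hspe1 lie head to head on mouse chromosome 1. In RefSeq (build GRCm38.p6) their start sites are 216 bases apart, on opposite strands, so that 1 stretch of sequence lies before both genes. It is shown because both genes have the same large decrease in DP. Promoter windows from 250 bases before to 50 bases after the start were searched on both strands for the heat shock element, the HSF1 recognition sequence. The 3-unit form was GAA, any 2 bases, TTC, any 2 bases and GAA. The 2-unit form was GAA, any 2 bases and TTC, which any 3-unit match also contains. It reads the same on both strands. The other order, TTC, any 2 bases and GAA, was not searched as a 2-unit form. The stretch from 129 to 32 bases before the Hspe1 start, chr1:55088019-55088116 on the plus strand, holds the 3-unit form on both strands, overlapping, in capitals:
Hspe1: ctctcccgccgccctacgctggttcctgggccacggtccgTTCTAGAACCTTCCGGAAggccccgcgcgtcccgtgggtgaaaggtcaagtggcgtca
Of the 72 members 59 had a promoter window, and 4 of them (6.78%) held the 3-unit form, against 0.662% of 27025 genes. They were Hspd1, Hspe1, Hsph1 and Dnajb6, the last named only for this match, after its values were seen. The Hspd1 and Hspe1 matches are the same bases of the shared stretch, counted once for each gene. The 2-unit form was in 14 members (23.7%), against 9.04% of genes. That count too holds both Hspd1 and Hspe1, and both Hspa1a and Hspa1b, whose windows are nearly identical. The members are thus not independent in either share. These matches describe the sequence and were not tested for binding.

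**Figure D2:**
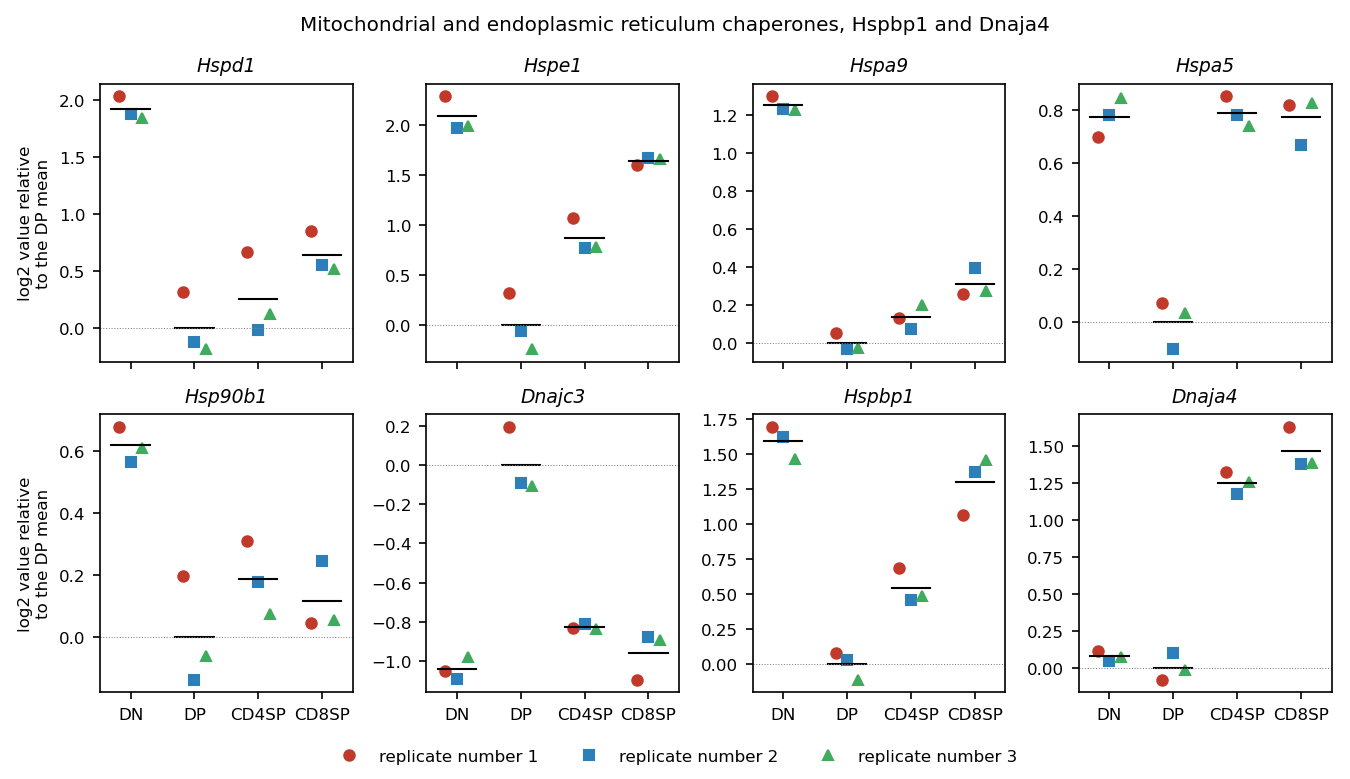
Log2 values relative to the DP mean (vertical axis) in DN, DP, CD4SP and CD8SP for 8 members, with 1 point per array, colour and shape for the replicate number and a black bar for the mean of 3 arrays. Hspd1, Hspe1, Hspa9 and Hspbp1 are highest in DN, Hspa5 is lowest in DP, Dnajc3 is highest in DP, and Dnaja4 is high in both single-positive subsets.

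Members of the endoplasmic reticulum moved in both directions. Hspa5 encodes BiP, the HSP70 of that compartment and a sensor of misfolded protein. It read 0.70, 0.78 and 0.84 in DN, 0.07, -0.10 and 0.03 in DP, 0.85, 0.78 and 0.74 in CD4SP and 0.82, 0.67 and 0.83 in CD8SP. Every DP array lay below every array of the other subsets, which lay close together. The differences were -0.77 ± 0.08 in DP minus DN (adjusted p = 3.17e-05), 0.79 ± 0.08 in CD4SP minus DP (adjusted p = 2.74e-05) and 0.77 ± 0.08 in CD8SP minus DP (adjusted p = 2.81e-05). Hsp90b1, which encodes the HSP90 of the same compartment (GRP94), was lower in DP than in DN by 0.62 on the log2 scale (-0.62 ± 0.11, adjusted p = 0.000894). Its differences in CD4SP minus DP (0.19 ± 0.11) and CD8SP minus DP (0.12 ± 0.11) did not pass the test (adjusted p = 0.21 and 0.428).

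Dnajc3 went the other way. It encodes P58IPK, a J protein that assists BiP inside the endoplasmic reticulum. It read -1.05, -1.09 and -0.98 in DN, 0.19, -0.09 and -0.10 in DP, -0.83, -0.81 and -0.83 in CD4SP and -1.09, -0.88 and -0.89 in CD8SP. The DP arrays were above all others. The differences were 1.04 ± 0.10 in DP minus DN (adjusted p = 1.28e-05), -0.83 ± 0.10 in CD4SP minus DP (adjusted p = 6.6e-05) and -0.96 ± 0.10 in CD8SP minus DP (adjusted p = 1.98e-05). Dnajc1, a J protein of the endoplasmic reticulum membrane, was also higher in DP than in DN (0.76 ± 0.09, adjusted p = 9.4e-05), with CD4SP and CD8SP arrays within 0.30 of DP. In CD8SP minus DP, however, Dnajc1 probe sets were called in opposite directions, so their average there hides a disagreement. Hspa13, an HSP70-like ATPase of the microsomes, was lower in CD8SP than in DP (-0.45 ± 0.08, adjusted p = 0.00121), and its CD4SP minus DP difference was -0.02 ± 0.08.

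The 3 genes Hspa5, Hsp90b1 and Dnajc3 were the only members whose promoter window held the endoplasmic reticulum stress element, searched on both strands as CCAAT, any 9 bases and CCACG. That is 5.08% of the members with a window, against 0.137% of 27025 genes. These matches describe the sequence, and a link between the element and the differences was not tested. The stretches (RefSeq, GRCm38.p6) are shown because these genes share the element and yet differ in direction in DP minus DN. There Hspa5 and Hsp90b1 were lower in DP, and Dnajc3 was higher. Capitals mark the element. They lie at chr2:34771985-34772083 on the plus strand, chr14:118937787-118937885 on the plus strand and chr10:86705493-86705694 on the minus strand, and Hsp90b1 holds a match on each strand.
Hspa5: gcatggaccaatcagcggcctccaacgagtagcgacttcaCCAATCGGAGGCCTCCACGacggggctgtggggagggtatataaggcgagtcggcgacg
Dnajc3: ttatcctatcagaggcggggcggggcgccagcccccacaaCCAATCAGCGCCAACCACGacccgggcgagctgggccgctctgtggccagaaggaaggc
Hsp90b1: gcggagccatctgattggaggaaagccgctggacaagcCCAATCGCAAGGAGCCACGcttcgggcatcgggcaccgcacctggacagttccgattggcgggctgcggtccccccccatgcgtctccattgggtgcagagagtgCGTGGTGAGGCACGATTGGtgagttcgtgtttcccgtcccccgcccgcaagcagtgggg

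Among the cytosolic HSP70 and HSP90 genes, Hspa4, Hsp90aa1 and Hspa8 were lower in DP than in DN. Hspa4, an HSP110-type nucleotide exchange factor, read 0.11, -0.10 and -0.02 in DP and 0.82, 0.75 and 0.68 in DN, a difference of -0.75 ± 0.11 (adjusted p = 0.00038). Hsp90aa1, the cytosolic HSP90 alpha, read 0.35, -0.22 and -0.13 in DP and 0.84, 0.65 and 0.73 in DN (-0.74 ± 0.19, adjusted p = 0.0115). Neither gene's arrays overlapped between the groups. Hspa8, the abundant constitutive HSP70, read 0.43, -0.23 and -0.20 in DP and 0.65, 0.43 and 0.61 in DN (-0.56 ± 0.17, adjusted p = 0.0214), and DP replicate 1 overlapped the DN arrays. The Hspa8 call was lost when DN replicate 1, DN replicate 3, DP replicate 2 or DP replicate 3 was left out (-0.54 to -0.45, adjusted p = 0.0588 to 0.0849). In CD4SP and CD8SP minus DP none of these 3 genes passed the test, with differences between -0.44 and 0.23. All 4 arrays numbered 1 were also left out, a setting chosen after seeing the data. Hspa8 then passed in DP minus DN (-0.73, adjusted p = 0.00116) and in CD8SP minus DP (0.38, adjusted p = 0.0152). Hsp90aa1 passed in CD4SP minus DP (-0.45, adjusted p = 0.00548). Hspa8 in CD4SP minus DP and Hsp90aa1 in CD8SP minus DP still did not pass (adjusted p = 0.118 and 0.173).

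Hspa4l, a relative of Hspa4 best known from testis, had the opposite direction. It read -0.35, -0.97 and -0.90 in DN, 0.12, -0.04 and -0.08 in DP, -0.25, -1.16 and -0.97 in CD4SP and -0.76, -1.52 and -1.40 in CD8SP. DP lay above the other subsets on every array. Its CD8SP minus DP difference was -1.23 ± 0.26 (adjusted p = 0.00353). The DP minus DN difference of 0.74 ± 0.26 (adjusted p = 0.0491) and the CD4SP minus DP difference of -0.79 ± 0.26 (adjusted p = 0.0403) did not keep their calls when arrays were left out in turn. The first lost its call without any 1 DP array, DN replicate 2 or 3, CD4SP replicate 3 or CD8SP replicate 2 or 3 (0.62 to 0.78, adjusted p = 0.0508 to 0.151). The second lost its call without any 1 DP array, DN replicate 3 or CD4SP replicate 2 or 3 (-0.83 to -0.61, adjusted p = 0.0502 to 0.15). With all 4 arrays numbered 1 left out, these differences were 0.88, -1.01 and -1.40 for DP minus DN, CD4SP minus DP and CD8SP minus DP, and all passed.

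Hspa2, an HSP70 known for its role in male germ cells, was lower in both single-positive subsets than in DP. It read -1.22, -0.71 and -0.83 in CD4SP and -1.02, -0.74 and -1.21 in CD8SP, against 0.19, 0.00 and -0.20 in DP. No single-positive array reached a DP array. The differences were -0.92 ± 0.17 in CD4SP (adjusted p = 0.0014) and -0.99 ± 0.17 in CD8SP (adjusted p = 0.000728). Hspa1l, the testis member of the same chromosome 17 cluster as Hspa1a and Hspa1b, read -1.12, -1.20 and -2.60 in CD4SP and 0.06, 0.55 and -0.61 in DP (-1.64 ± 0.53, adjusted p = 0.0341). That call was lost when CD4SP replicate 3 (-1.16), DP replicate 1 (-1.61) or DP replicate 2 (-1.37) was left out, and without the 4 arrays numbered 1 (-1.87, adjusted p = 0.105). Hspa14, a ribosome-associated HSP70, was lower by 0.39 in CD8SP than in DP (-0.39 ± 0.09, adjusted p = 0.00559), but its 3 probe sets disagreed, and their median gave 0.15 (adjusted p = 0.283). Hspa12a and Hspa12b, distant relatives, were called in none of the 4 comparisons.

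The J proteins held the largest difference among all members. Dnajc6 encodes auxilin, which recruits HSP70 to strip clathrin from coated vesicles. It read -3.11, -3.10 and -2.90 in CD4SP and -3.79, -3.78 and -3.94 in CD8SP, against -0.18, 0.08 and 0.09 in DP. The 3 groups were fully separated. The differences were -3.04 ± 0.12 in CD4SP (adjusted p = 2.91e-08) and -3.84 ± 0.12 in CD8SP (adjusted p = 5.54e-09). On the DN arrays it read -0.60, -0.33 and -0.22, and DP minus DN was 0.38 ± 0.12 (adjusted p = 0.0275), a call lost without DN replicate 1 (0.27), DN replicate 2 (0.41), DP replicate 2 (0.34) or DP replicate 3 (0.33), and with the probe set of smallest spread (0.15, adjusted p = 0.402).

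Dnajc15 encodes MCJ, a J protein of the mitochondrial inner membrane that restrains respiration. It read -0.62, -0.87 and -0.99 in DN, -0.20, 0.23 and -0.03 in DP, -2.15, -2.34 and -2.06 in CD4SP and -0.89, -0.44 and -0.46 in CD8SP. CD4SP lay below every other array, and DP above the rest. The differences were 0.83 ± 0.16 in DP minus DN (adjusted p = 0.00178), -2.19 ± 0.16 in CD4SP minus DP (adjusted p = 1.84e-06) and -0.60 ± 0.16 in CD8SP minus DP (adjusted p = 0.0114). Dnajc9, a J protein that is also a chaperone of histones H3 and H4, was the only member called in opposite directions in the single-positive subsets. It read 0.63, 0.50 and 0.60 in DN, 0.06, 0.00 and -0.07 in DP, -0.75, -0.86 and -0.73 in CD4SP and 0.18, 0.45 and 0.49 in CD8SP. It fell in CD4SP relative to DP (-0.78 ± 0.09, adjusted p = 8.32e-05), rose in CD8SP relative to DP (0.37 ± 0.09, adjusted p = 0.00933) and was lower in DP than in DN (-0.57 ± 0.09, adjusted p = 0.000696).

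Dnaja4, a cytosolic J protein of the same type as Dnaja1, was higher in both mature subsets. It read 0.11, 0.05 and 0.08 in DN, -0.08, 0.10 and -0.02 in DP, 1.32, 1.18 and 1.26 in CD4SP and 1.63, 1.38 and 1.39 in CD8SP. DP and DN overlapped, and both lay below all single-positive arrays. The differences were 1.25 ± 0.09 in CD4SP minus DP (adjusted p = 1.76e-06) and 1.47 ± 0.09 in CD8SP minus DP (adjusted p = 5.03e-07). Dnajb5, a class B J protein, was likewise higher in CD4SP (0.83 ± 0.10, adjusted p = 7.24e-05) and in CD8SP (0.86 ± 0.10, adjusted p = 4.71e-05) than in DP. Dnajb13, known from sperm flagella and cilia, was higher by 0.69 ± 0.12 (adjusted p = 0.0011) and 0.87 ± 0.12 (adjusted p = 0.000181) in the same comparisons.

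Dnajb4, a close relative of the HSP40 gene Dnajb1, was highest in DP. It read -0.76, -1.57 and -1.35 in DN, 0.18, -0.11 and -0.06 in DP, -0.97, -1.45 and -1.27 in CD4SP and -1.50, -1.71 and -1.58 in CD8SP. No other array reached the DP arrays. The differences were 1.23 ± 0.19 in DP minus DN (adjusted p = 0.00051), -1.23 ± 0.19 in CD4SP minus DP (adjusted p = 0.000527) and -1.60 ± 0.19 in CD8SP minus DP (adjusted p = 6.98e-05). The single-positive differences depended on the probe set: with the Dnajb4 probe set of smallest spread they were -0.04 in CD4SP and -0.22 in CD8SP (adjusted p = 0.741 and 0.0512). Dnajb2, a J protein that passes clients to the proteasome, was instead lowest in DP: it read 0.91, 1.17 and 1.32 in DN, -0.18, 0.09 and 0.09 in DP, 1.07, 0.90 and 0.88 in CD4SP and 0.63, 0.57 and 0.60 in CD8SP. No other array came as low as the DP arrays. Its difference was -1.13 ± 0.12 in DP minus DN (adjusted p = 2.58e-05) and 0.95 ± 0.12 in CD4SP minus DP (adjusted p = 9.33e-05).

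Further J proteins differed from DP. Dnajc5b, a testis relative of the synaptic vesicle protein Dnajc5, was lower in DP than in DN (-1.79 ± 0.24, adjusted p = 0.000163) and higher in CD8SP than in DP (1.10 ± 0.24, adjusted p = 0.00374), the second call lost without the 4 arrays numbered 1 (0.96, adjusted p = 0.0594). Dnajc2, which works with HSP70 at the ribosome, was lower in DP than in DN (-0.61 ± 0.08, adjusted p = 0.000215), a call lost when probe sets shared between transcripts were left out (-0.22, adjusted p = 0.23). Dnajc5g was higher in DP than in DN (0.69 ± 0.12, adjusted p = 0.00087). Dnajc12 (-0.90 ± 0.16, adjusted p = 0.000896) and Dnajb7 (-0.88 ± 0.22, adjusted p = 0.00876) were lower in CD8SP than in DP. Of the 44 DNAJ genes, DP had 11 above and 9 below DN, CD4SP had 10 above and 10 below DP, and CD8SP had 11 above and 10 below DP. These are 45.5%, 45.5% and 47.7% of the DNAJ genes, beside 36.6%, 32.7% and 39% of all genes.

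The small heat shock proteins, which hold unfolded proteins until HSP70 takes them over, were called in 2 of 8 genes in DP minus DN (25%, beside 36.6% of all genes), in 3 in CD4SP minus DP (37.5%, beside 32.7%) and in 3 in CD8SP minus DP (37.5%, beside 39%). Of the 8, only Hspb11 was called in all 3 comparisons with DP. It encodes IFT25, which despite its name is a part of the intraflagellar transport machinery. It read -0.62, -0.71 and -0.89 in DN, -0.06, 0.01 and 0.05 in DP, -0.53, -0.53 and -0.42 in CD4SP and -0.71, -0.61 and -0.58 in CD8SP, so that DP lay above every other array. The differences were 0.74 ± 0.09 in DP minus DN (adjusted p = 6.49e-05), -0.49 ± 0.09 in CD4SP minus DP (adjusted p = 0.00114) and -0.63 ± 0.09 in CD8SP minus DP (adjusted p = 0.000176). With the Hspb11 probe set of smallest spread the CD4SP difference was -0.07 (adjusted p = 0.518). The stress-inducible Hspb1 (HSP27) read between -0.05 and 0.26 on the 12 arrays. Its CD8SP minus DP difference of 0.21 ± 0.07 passed (adjusted p = 0.0424), but kept its call only without CD8SP replicate 2 or DP replicate 2 when arrays were left out in turn (0.18 to 0.21 where lost). Hspb9, known from testis, was higher in DP than in DN (0.49 ± 0.12, adjusted p = 0.00934) and lower in CD4SP than in DP (-0.59 ± 0.12, adjusted p = 0.00346). Hspb6 (HSP20) was also called lower than DP, at -0.35 in CD4SP and -0.29 in CD8SP (adjusted p = 0.0253 and 0.0437). The first Hspb6 call was lost without CD4SP replicate 2 or 3 or DP replicate 2 or 3 (-0.36 to -0.29), and the second without any 1 DN array, DP replicate 2 or 3, CD4SP replicate 2 or CD8SP replicate 1 or 3 (-0.29 to -0.22). Hspb2, Hspb3, Hspb7 and Hspb8 were called in none of the 4 comparisons.

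Among the partner genes, Hspbp1, a nucleotide exchange factor that inhibits HSP70, followed the order of Hspe1. It read 1.70, 1.62 and 1.47 in DN, 0.08, 0.03 and -0.11 in DP, 0.69, 0.46 and 0.49 in CD4SP and 1.07, 1.38 and 1.46 in CD8SP. DP was lowest and CD4SP lay between DP and CD8SP without overlap. The differences were -1.59 ± 0.12 in DP minus DN (adjusted p = 2.46e-06), 0.54 ± 0.12 in CD4SP minus DP (adjusted p = 0.00433) and 1.30 ± 0.12 in CD8SP minus DP (adjusted p = 8.45e-06). Hspbap1, whose protein binds HSP27, was higher in DP than in DN by 0.70 ± 0.07 (adjusted p = 2.92e-05).

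Members that differed between the single-positive subsets were tested as CD4SP minus CD8SP. This contrast is also the test of whether the changes from DP differ. Lower in CD4SP were Dnajc15 (-1.59 ± 0.16, adjusted p = 0.000147), Dnajc9 (-1.15 ± 0.09, adjusted p = 4.35e-05), Hspe1 (-0.78 ± 0.15, adjusted p = 0.00655), Hspbp1 (-0.76 ± 0.12, adjusted p = 0.00219) and the testis small heat shock protein gene Hspb9 (-0.54 ± 0.12, adjusted p = 0.0161). Higher in CD4SP was Dnajc6 (0.80 ± 0.12, adjusted p = 0.00168), which was far below DP in both subsets. Hspa13 was also higher (0.43 ± 0.08, adjusted p = 0.00683), reading -0.03, -0.09 and 0.05 in CD4SP and -0.60, -0.39 and -0.36 in CD8SP, but did not pass with only these subsets in the fit (adjusted p = 0.0581).

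The other 3 genes higher in CD4SP than in CD8SP were Dnajc4, Dnajc13 and Dnajc7. Dnajc4 read 0.76, 0.64 and 0.87 in CD4SP and -0.01, 0.24 and 0.23 in CD8SP (0.60 ± 0.14, adjusted p = 0.016), and lost its call without CD4SP replicate 3 (0.54, adjusted p = 0.0666). Dnajc13, the endosomal J protein RME-8, differed by 0.35 ± 0.09 (adjusted p = 0.0324), and Dnajc7, which bridges HSP70 and HSP90, by 0.30 ± 0.08 (adjusted p = 0.0378). Both were lower in each single-positive subset than in DP. Their calls between the subsets rested on single arrays: Dnajc13 lost its call without CD4SP replicate 1, CD4SP replicate 3 or any 1 CD8SP array (0.29 to 0.37), and Dnajc7 without any 1 of the 6 single-positive arrays, DN replicate 2, DP replicate 2 or DP replicate 3 (0.26 to 0.33). Hspb9 lost its call without CD4SP replicate 2, CD4SP replicate 3 or CD8SP replicate 3 (-0.52 to -0.48). Of the 8 measured markers of NK and innate lymphoid cells 4 were lower in CD4SP (50%, beside 4.91% of all genes), namely Klrd1, Nkg7, Gzma and Eomes. The markers Ncr1, Klrk1, Tyrobp and Fcer1g were not called. The mean of the 8 markers lay between 0.08 and 0.31 on the CD4SP arrays and between 1.91 and 2.12 on the CD8SP arrays. Their part in these results was not tested.

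**Figure D3:**
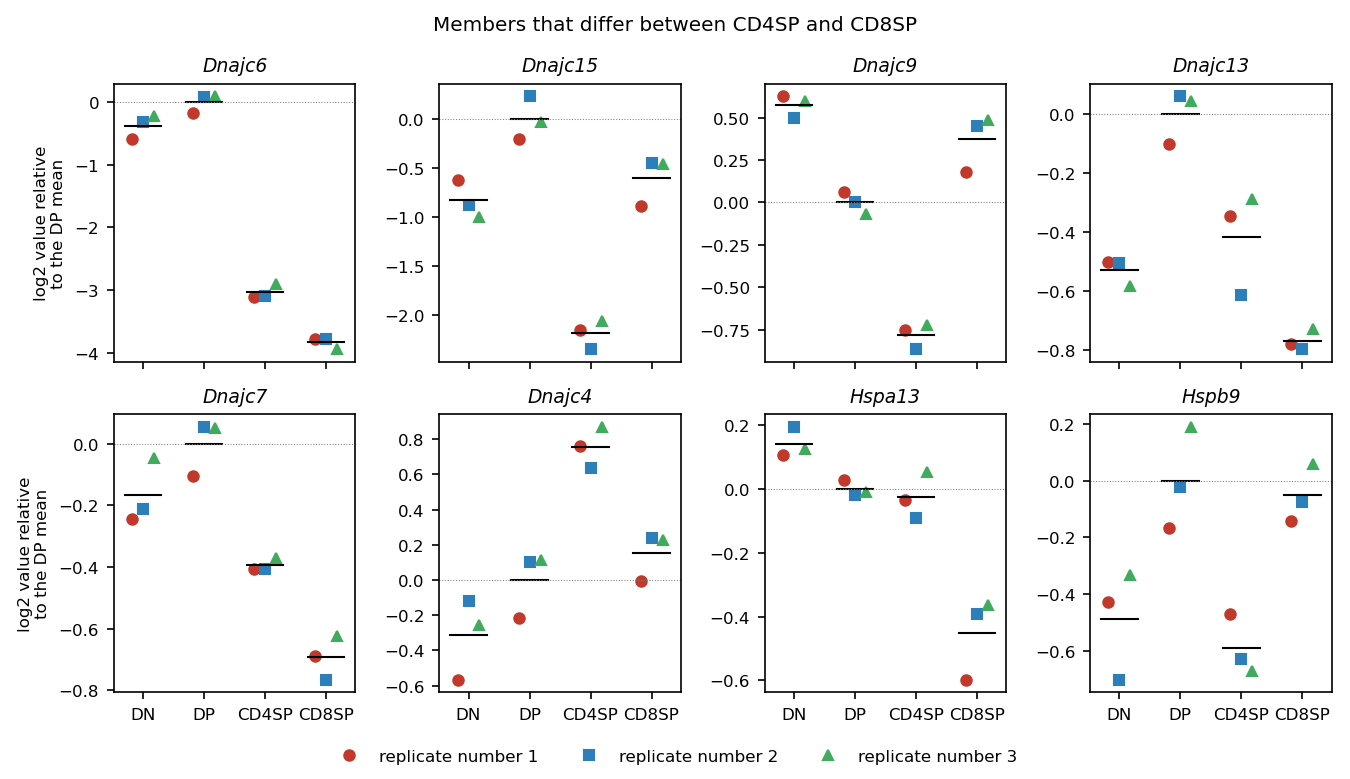
Log2 values relative to the DP mean (vertical axis) in DN, DP, CD4SP and CD8SP for 8 of the 10 members called in CD4SP minus CD8SP, with 1 point per array, colour and shape for the replicate number and a black bar for the mean of 3 arrays. Dnajc15 and Dnajc9 lie lower in CD4SP than in CD8SP, and Dnajc6 lies below -2.8 on all single-positive arrays.

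Hspa1a, Hspa1b and Hsph1 read highest on the array whose sample title has replicate number 1, in each of the 4 subsets. Hspa1a and Hspa1b encode the inducible HSP70 proteins and are near-identical copies, so their probe sets may read both. Hspa1b read 3.76, 0.97 and 1.67 on DN replicates 1, 2 and 3, 1.12, -0.80 and -0.32 in DP, 1.75, -0.55 and 0.28 in CD4SP and 1.51, -0.07 and 0.66 in CD8SP. Hsph1, the stress-inducible HSP110, read 2.22, 1.41 and 1.30 in DN, 1.25, -0.58 and -0.67 in DP, 1.53, -0.42 and -0.27 in CD4SP and 1.59, 0.37 and 0.31 in CD8SP. In each subset the array numbered 1 was the highest for both genes. Hspa1a read 2.57, -0.35 and -0.03 in DN, 0.15, -0.28 and 0.13 in DP, 1.19, -0.86 and -0.03 in CD4SP and 0.48, -0.74 and -0.41 in CD8SP, again highest on the arrays numbered 1.

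Arrays numbered 1 were set against those numbered 2 and 3 in a fit with the subset as a term. This comparison was chosen with an earlier result of these data known, in which Hspa1b stood highest on the arrays numbered 1, so the Hspa1b value of 1.80 ± 0.16 is a description. The shares of members called, or highest, on the arrays numbered 1 include Hspa1b and are descriptions too. The latter share also includes its near-identical copy Hspa1a. Besides Hspa1b, 6 members were higher on the arrays numbered 1, so that 7 of 72 were called higher, against 0.671% of all genes, and 2 were called lower, against 1.51%. In both directions together 12.5% of the members were called, against 2.18% of all genes. The higher members were Hsph1 (1.47 ± 0.16, adjusted p = 0.00835), Dnaja1 (0.58 ± 0.09, adjusted p = 0.0243), Hspa4l (0.57 ± 0.10, adjusted p = 0.031), Dnajb1 (0.54 ± 0.07, adjusted p = 0.0152), Hsp90aa1 (0.41 ± 0.07, adjusted p = 0.0329) and Hspd1 (0.39 ± 0.08, adjusted p = 0.0414). Dnaja1 and Dnajb1 are J proteins of the cytosol known to be stress-inducible. Lower on the arrays numbered 1 were Dnajc30, a mitochondrial J protein (-0.42 ± 0.08, adjusted p = 0.0359), and Dnajc27 (-0.32 ± 0.06, adjusted p = 0.0351). Hspa1a was not called (1.42 ± 0.33, adjusted p = 0.0635).

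Leaving out each array in turn, only Hspa1b and Hsph1 kept their call every time. Dnajb1 lost its call without DN replicate 1, DN replicate 2 or DP replicate 1 (0.48 to 0.57, adjusted p = 0.0502 to 0.0533). Hspd1 lost its call whichever array was left out (0.32 to 0.47). With the probe set of smallest spread Dnaja1 was 0.47, Dnajb1 0.40, Hspa4l 0.48 and Hsp90aa1 0.12, and none of the 4 passed (adjusted p = 0.0562, 0.052, 0.0861 and 0.529). The remaining calls were lost with most arrays: Dnaja1 (0.51 to 0.61) kept its call only without CD4SP replicate 2, DN replicate 1 or DN replicate 3, Hspa4l (0.49 to 0.62) only without CD4SP replicate 2 or DP replicate 1, and Hsp90aa1 (0.37 to 0.44) only without DN replicate 1. Dnajc27 (-0.35 to -0.28) kept its call only without CD4SP replicate 2, and Dnajc30 (-0.43 to -0.38) only without CD4SP replicate 1 or 2. The sign was the same each time. The array numbered 1 was the highest of its subset in all 4 subsets for 10 of 72 members (13.9%), against 3.04% of all genes. These were Hspa1a, Hspa1b, Hsph1, Hsp90aa1, Hspa8, Hspa4l, Hspd1, Dnaja1, Dnajb1 and Dnajb4. Without DN replicate 1 and CD8SP replicate 1, the arrays of lowest weight, 3 members were called higher and 0 lower, with 6 lower at an unadjusted p under 0.05 in limma. Some markers of other cells also differed by number. The B cell list was lowest on the array numbered 1 in each subset, at 0.37 in DN (against 2.12 and 1.87 on DN replicates 2 and 3), -0.07 in DP (0.03 and 0.04), -0.60 in CD4SP (-0.31 and -0.45) and 0.05 in CD8SP (0.08 and 0.22). The erythroid list was likewise lowest there, at -0.57 for DN, -0.48 for DP, -0.11 for CD4SP and -0.67 for CD8SP, against -0.22 to 0.24 on the other arrays. Called lower were the B cell gene Cd79b (-0.96 ± 0.16, adjusted p = 0.0305), the heme synthesis gene Alas2 (-1.49 ± 0.21, adjusted p = 0.0196) and the endothelial gene Pecam1 (-0.47 ± 0.09, adjusted p = 0.0359), which are 1 of 8 B cell, 1 of 3 erythroid and 1 of 10 stromal markers. In limma 0 of 8 NK cell, 14 myeloid and 4 gamma delta T cell markers were called, with 2, 1 and 0 at an unadjusted p under 0.05. Their part in the result was not tested. The labels do not say what the replicate numbers stand for, and which step of the experiment the arrays numbered 1 share was not tested.

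**Figure D4:**
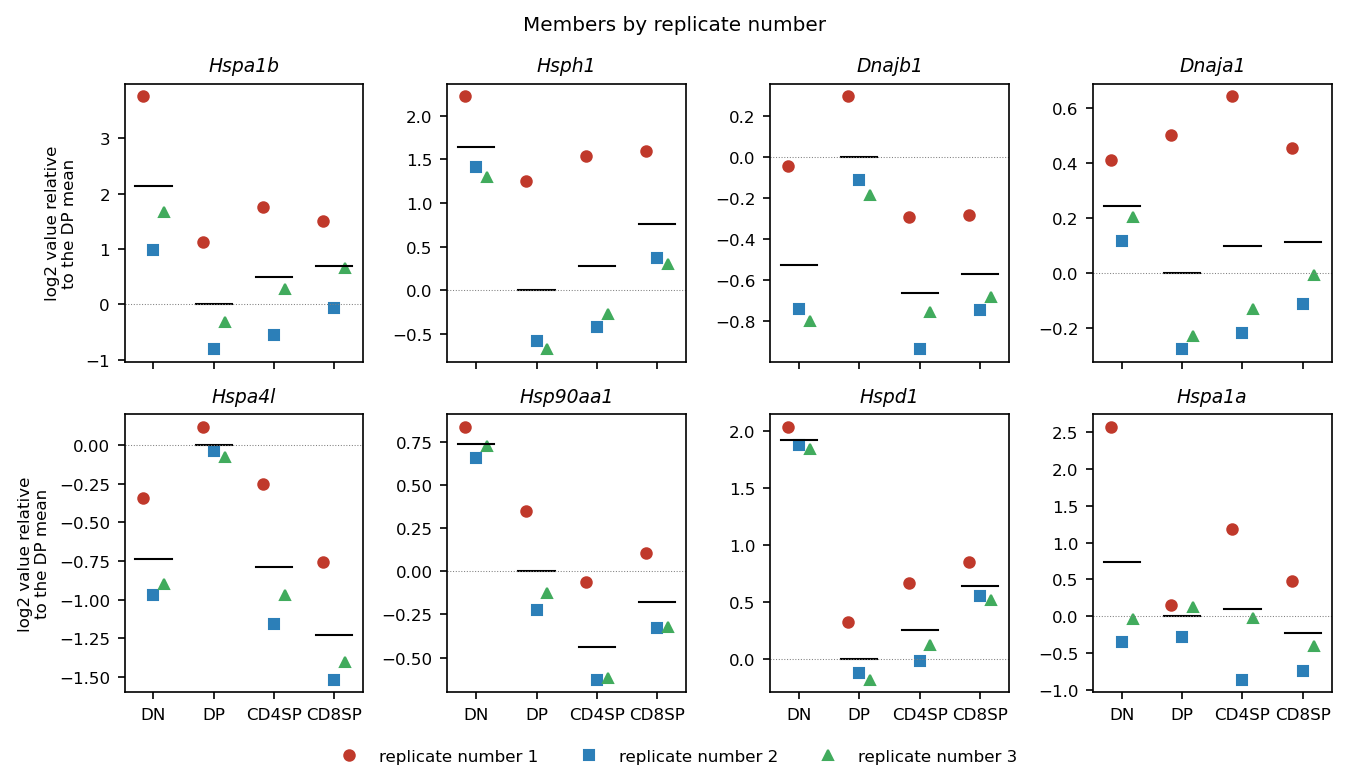
Log2 values relative to the DP mean (vertical axis) of 8 members in DN, DP, CD4SP and CD8SP, with 1 point per array, colour and shape for the replicate number and a black bar for the mean of 3 arrays. The red circles, arrays numbered 1, are the highest point of each subset in all 8 panels. The members shown are those called higher on these arrays, and Hspa1a, so the panels do not stand for the other members.

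**Figure D5:**
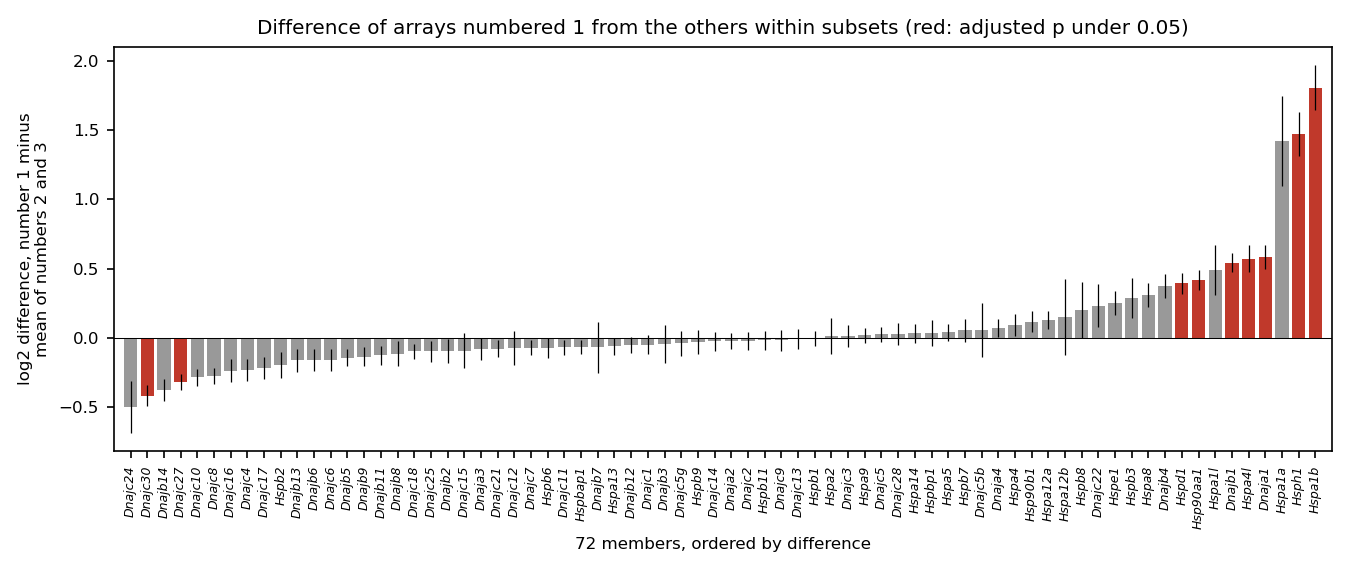
Log2 difference of the arrays numbered 1 from the mean of those numbered 2 and 3 (vertical axis) for the 72 members, ordered by size, with bars for the fitted difference, lines for its SE and red for an adjusted p under 0.05. Hspa1b, Hsph1 and Hspa1a stand at 1.42 to 1.80, and the other members lie between -0.50 and 0.58.

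The promoter stretches of Hspa1b, Hspa1a and Dnaja1 are shown for the 2-unit heat shock element that they hold, in capitals, since these genes are among those highest on the arrays numbered 1. They come from RefSeq (GRCm38.p6) at chr17:34959295-34959382 on the minus strand, chr17:34972213-34972300 on the minus strand and chr4:40722304-40722391 on the plus strand.
Hspa1b: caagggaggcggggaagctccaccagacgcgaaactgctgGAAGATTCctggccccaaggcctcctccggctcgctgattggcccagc
Hspa1a: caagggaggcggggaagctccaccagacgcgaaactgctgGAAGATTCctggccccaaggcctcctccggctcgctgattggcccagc
Dnaja1: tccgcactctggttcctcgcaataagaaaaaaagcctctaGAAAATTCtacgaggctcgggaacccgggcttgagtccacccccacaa
The Hspa1b and Hspa1a stretches are identical over 88 bases, and their whole windows are identical at 296 of 300 bases (98.7%). Of the other members highest on the arrays numbered 1 in every subset, Hspd1 and Hsph1 also held a match. No match was listed for Dnajb1, Hsp90aa1, Hspa8, Hspa4l or Dnajb4, some of which may have had no window. This does not show that these genes lack the element, since only 1 order of the 2-unit form was searched. Dnajc27, called lower on the arrays numbered 1, held the 2-unit form. A link between the element and these differences was not tested.

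The spread by replicate number bears on the subset comparisons of these genes. With all arrays, DP minus DN was -2.13 ± 0.80 for Hspa1b (adjusted p = 0.0597) and -1.64 ± 0.63 for Hsph1 (adjusted p = 0.0641), and neither was called. Between arrays of the same number the difference was -2.64, -1.78 and -1.98 for Hspa1b and -0.97, -1.99 and -1.97 for Hsph1, below 0 each time. Hspa1a, the near-identical copy of Hspa1b, did not share this: its same-number differences were -2.41, 0.06 and 0.16. With all arrays its DP minus DN difference was -0.73 ± 0.72 (adjusted p = 0.475). With the replicate number as a block, a pairing that the labels do not give, Hspa1b and Hsph1 were called (adjusted p = 9.58e-05 and 0.000341). Hspa1a was not called with the block (adjusted p = 0.225). Dnajb1 was called with it in DP minus DN, CD4SP minus DP and CD8SP minus DP (adjusted p = 0.00178, 0.000534 and 0.00107). The 4 arrays numbered 1 were also left out, a setting chosen after seeing the data. DP minus DN was then -1.88 ± 0.40 for Hspa1b (adjusted p = 0.0133) and -1.98 ± 0.09 for Hsph1 (adjusted p = 4.62e-05), and both were called. For Hspa1a it was then 0.11 ± 0.30 (adjusted p = 0.816), not called. Hsph1 was then also higher in CD8SP than in DP (0.96 ± 0.09, adjusted p = 0.000462) and lower in CD4SP than in CD8SP (-0.68 ± 0.09). Under the same setting Dnajb1 was higher in DP than in DN (0.62 ± 0.09, adjusted p = 0.00269) and lower in CD4SP than in DP (-0.70 ± 0.09) and in CD8SP than in DP (-0.57 ± 0.09), where all arrays gave 0.53, -0.66 and -0.57, not called. Dnaja1 was then lower in DP than in DN (-0.41 ± 0.08), against -0.24 ± 0.26 with all arrays (adjusted p = 0.518). In that setting 36 members were called in DP minus DN (50%, against 36.2% of all genes), 30 in CD4SP minus DP (41.7%, against 32.5%), 32 in CD8SP minus DP (44.4%, against 37.4%) and 17 in CD4SP minus CD8SP (23.6%, against 14.6%).

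Other chaperone genes that work with the members were described from 3 lists. Of 28 co-chaperones and regulators of HSP70 and HSP90, DP had 2 above and 13 below DN, with a median difference of -0.36, against 0.04 for all genes, of which 17.8% were higher and 18.8% lower. They included the exchange factor Bag2 (-2.20 ± 0.09), Trap1, the mitochondrial HSP90 (-1.12 ± 0.08), Nudc (-1.14 ± 0.11) and Hyou1, an exchange factor of BiP (-0.62 ± 0.09). Of the 14 subunits of the cytosolic chaperonin CCT and its partner prefoldin, 12 were called lower and 0 higher in DP minus DN, with a median of -0.87. Cct6a (-1.09 ± 0.08) and Cct5 (-0.93 ± 0.08) were among them. Of 20 genes of endoplasmic reticulum folding and stress, DP had 5 above and 11 below DN (median -0.37), with the lectin chaperones Calr (-0.79 ± 0.08) and Canx (-0.85 ± 0.10) lower and Edem1, which hands glycoproteins to degradation, higher (1.28 ± 0.08).

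In the single-positive subsets these lists were mixed. In CD4SP minus DP the co-chaperones had 2 higher and 6 lower, CCT and prefoldin 2 and 4, and the endoplasmic reticulum list 7 and 3, beside 16.4% of all genes higher and 16.2% lower. In CD8SP minus DP the counts were 5 and 8, 3 and 0, and 4 and 4, beside 18.2% of all genes higher and 20.9% lower. Like Hspa5, Calr was higher in CD4SP (1.02 ± 0.08) and in CD8SP (0.96 ± 0.08) than in DP, and Hyou1 was higher in CD4SP (0.83 ± 0.09). Like Dnajc3, Edem1 was lower in CD4SP (-2.20 ± 0.08) and in CD8SP (-2.27 ± 0.08), and Xbp1, a transcription factor of the unfolded protein response, was lower in CD8SP (-1.71 ± 0.13). On the arrays numbered 1, 3 of 28 co-chaperones were higher (10.7%, beside 0.671% of all genes), namely the HSP90 partners Chordc1 (0.76 ± 0.08, adjusted p = 0.00818), Ahsa2 (0.59 ± 0.09, adjusted p = 0.0276) and Stip1, which links HSP70 to HSP90 (0.58 ± 0.09, adjusted p = 0.0231). In limma 0 CCT or prefoldin genes were called there, with 3 at an unadjusted p under 0.05, and 0 endoplasmic reticulum genes, with 2 at that level. Of 12 immediate early genes, a list of genes that respond to cell dissociation, Junb (-0.49 ± 0.07), Jun (-0.66 ± 0.12) and Btg2 (-0.33 ± 0.06) were lower on the arrays numbered 1 (25%, beside 1.51% of all genes) and 0 were higher. Whether the members and these genes moved for 1 reason was not tested.

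Several lists of markers of other cells that the DN gate could hold moved with the DP minus DN comparison. All 8 measured markers of NK and innate lymphoid cells and all 4 of gamma delta T cells were lower in DP, as were 8 of 14 myeloid and dendritic and 3 of 8 B cell markers. Of all genes 18.8% were lower. Among stromal markers 2 of 10 were lower, and among erythroid markers 0 of 3, with Hba-a1 higher. The mean of the NK list lay between -0.07 and 0.06 on the DP arrays and between 1.66 and 2.94 on the DN arrays, and that of the myeloid list between -0.16 and 0.15 in DP and between 2.35 and 3.69 in DN. The B cell list stood at 0.37 on DN replicate 1, against 1.87 and 2.12 on the other DN arrays. The mean of the 12 immediate early genes lay between -0.88 and -0.26 in DN, -0.27 and 0.15 in DP, 0.72 and 0.85 in CD4SP and 0.26 and 0.45 in CD8SP. Since values are relative to DP, no marker's absence can be read from them. The part of these cells and genes in the members' differences was not tested.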

How the data were processed

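Total RNA of 12 sorted thymocyte samples was hybridised to Affymetrix mouse arrays. The authors deposited 1 log2 value per probe set and array (base taken as 2, since the labels do not state it), and the values show that the mean of the 3 DP arrays was subtracted from each probe set (largest absolute DP mean 1.27e-06). Signal levels were thereby lost, so no filter on dim probe sets was possible. The submitters' processing notes name MAS5, with no role given. Values of DN replicate 1 have 3 decimals.

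Gene symbols came from the platform table, and 34945 probe sets with 1 symbol were averaged to 18193 genes. All arrays entered 1 linear model of 4 group means (limma version 3.58.1, run in R version 4.3.3) with moderated variances, and p-values are two-sided and Benjamini-Hochberg adjusted over all genes within each comparison. The replicate-number fit added a 3-level factor. On simulated data with 200 changed genes among 18193, the DP minus DN fit recovered 37.3%, 71.6% and 95.5% of changes of 0.5, 1 and 2 on the log2 scale, and the replicate-number fit 55.2%, 83.6% and 98.5%. The simulated noise was independent between arrays, and fewer genes changed than the 6660 called in DP minus DN. These rates therefore need not hold for the data. Only 3 arrays per subset limit the precision.

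Members, gene lists and tests were chosen with earlier results of these data known. Any heat shock protein member may be named. Dnaj members are named for the 5 largest rises and 5 largest falls per comparison among called members whose arrays do not overlap, for opposite calls in the single-positive subsets, or for a call between these subsets or by replicate number. List genes named have the lowest adjusted p. Alternatives numbered 24 planned and 1 added after seeing the data. Promoters come from RefSeq tables.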

Additional observations from a re-analysis of the deposited data

Results flagged for a closer look

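The changes from DP differed between CD4SP and CD8SP, by the test of the difference itself in limma, for 10 members (values are CD4SP minus CD8SP, log2). Dnajc15 fell by more in CD4SP (-1.59 ± 0.16, adjusted p = 0.000147), with -2.19 in CD4SP minus DP and -0.60 in CD8SP minus DP. Dnajc9 moved in opposite directions (-1.15 ± 0.09, adjusted p = 4.35e-05), with -0.78 and 0.37 in these comparisons. Hspe1 (-0.78) and Hspbp1 (-0.76) rose by less in CD4SP. Hspb9 (-0.54) was called lower than DP in CD4SP (-0.59), and its CD8SP minus DP difference of -0.05 was not called. Dnajc6 (0.80), Dnajc13 (0.35) and Dnajc7 (0.30) fell in both subsets and by less in CD4SP. Hspa13 (0.43) fell in CD8SP, and Dnajc4 (0.60) rose in CD4SP, while the difference of the other subset from DP was not called for either gene. Of the 10 calls, 4 were lost in at least 1 fit that left out an array (Dnajc13, Dnajc4, Dnajc7 and Hspb9). With only these 2 groups in the limma fit, Dnajc13, Dnajc7 and Hspa13 did not pass (adjusted p = 0.12, 0.0969 and 0.0581). Nor did Dnajc13 and Dnajc7 with arrays centred on their medians (adjusted p = 0.0876 and 0.0768).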

How the results depend on the processing

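Over 24 planned and 1 added alternatives, 188 of 242 recomputed counts of called members stayed within 1.5 times the reported one, and of 115 called member results 37 kept their call in every alternative, 78 lost it in at least 1, of which 2 changed sign in at least 1. Quantile normalization ended 72 of these calls, the probe set of smallest spread 20, and the other alternatives besides leaving out 1 array up to 15 each. The sign changed for Dnaja3 in DP minus DN (0.26 with the probe set of smallest spread and 0.26 without shared probe sets, adjusted p = 0.104 and 0.119) and for Hspa14 in CD8SP minus DP (0.15 with the probe set of smallest spread and 0.15 with the median over probe sets, adjusted p = 0.118 and 0.283). Quantile normalization gave 8 higher and 10 lower in DP minus DN, 5 and 6 in CD4SP minus DP, 7 and 6 in CD8SP minus DP, 0 and 1 in CD4SP minus CD8SP and 0 and 0 by replicate number (in limma, 3 and 4, and 11 and 7, at an unadjusted p under 0.05 in the last 2). By construction it gives all arrays the same spread, whereas the deposited DP arrays have an SD of 0.22 to 0.23 over probe sets and the others 0.70 to 0.86. For CD4SP minus CD8SP, the count of higher members was 3 with arrays centred on their medians, 8 with array weights, 2 with only these groups in the fit, 9 when a factor for arrays numbered 1 was added and 3 without DN replicate 1 and CD8SP replicate 1. The count of lower members was 12 with the probe set of smallest spread and 11 without the 4 arrays numbered 1. By replicate number, 3 members were higher with the probe set of smallest spread and 3 without DN replicate 1 and CD8SP replicate 1, and 0 were lower with arrays centred on their medians or without those arrays (9 and 6 at an unadjusted p under 0.05). Why these counts moved was not tested. Leaving out 1 array at a time gave 12 to 16 higher and 16 to 20 lower in DP minus DN, 8 to 13 and 10 to 18 in CD4SP minus DP, 13 to 16 and 15 to 17 in CD8SP minus DP, 2 to 6 and 4 to 7 in CD4SP minus CD8SP, and 2 to 5 and 0 to 2 by replicate number. The lowest counts in CD4SP minus DP came without DP replicate 1 or CD4SP replicate 3 (8 higher) and without DP replicate 2 (10 lower) or DP replicate 1, CD4SP replicate 2 or CD4SP replicate 3 (11 lower). In CD4SP minus CD8SP they came without CD4SP replicate 3 (2 higher) or any 1 CD8SP array (3 higher). With the replicate number as a block, CD4SP minus CD8SP had 8 lower members, and the other counts stayed within 1.5 times. The block added 18 member calls over the 4 comparisons and ended 4 (Dnaja3, Dnajc12 and Dnajc14 in CD4SP minus DP, Hspb1 in CD8SP minus DP, named after their values were seen). Among those added were Hspa1b and Hsph1 in DP minus DN (adjusted p = 9.58e-05 and 0.000341) and in CD8SP minus DP (0.0302 and 0.019), Dnajb1 in DP minus DN, CD4SP minus DP and CD8SP minus DP (0.00178, 0.000534 and 0.00107), Hsp90aa1 in CD4SP minus DP (0.00772) and Hspd1 in CD4SP minus CD8SP (0.0373). Over all genes, deviations of same-numbered arrays from their group means correlated at 0.11 to 0.16 for number 1, -0.03 to 0.09 for number 2 and 0.02 to 0.14 for number 3, and different numbers at -0.16 to 0.08. Since not every same-numbered pair exceeded 0.1, the numbers were not taken to pair the samples. Over the 72 members alone the same correlations were higher, at 0.51 to 0.79, 0.51 to 0.72 and 0.11 to 0.72, against -0.82 to 0.65 for different numbers, and 11 of 12 arrays correlated best with an array of their own number, over members as over all genes. This is a hint from the data, not from the design.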
